A study of Mus musculus with 18 samples.

Results

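Accessible chromatin at the Cdh13 locus was described in lung endothelial cells (ECs) of young and aged mice with and without bleomycin injury, using the open regions that ATAC-seq detected there. Peaks of all 18 mice were merged where they overlapped, regions with a peak in at least 2 mice were kept, and a region belonged to the locus when Cdh13 had the nearest transcription start site (TSS) or when the region lay inside the Cdh13 gene. By this rule 9 of 47338 regions belonged to the locus, 7 by nearest TSS and 2 because they lay in the gene body. The locus was chosen by the difference between Young Bleo and Young Sham mice, so that difference is described here and carries no test. The comparisons that share either of these groups are described in the same way, and only Aged Bleo against Aged Sham was tested. This test is not independent of the choice of the locus either, since results of the aged mice were known when the locus was taken up and their peaks helped to define the regions.

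The mice were Col1α1-GFP transgenic animals of both sexes on the FVB strain, in which GFP marks cells that express collagen I. Young mice were 2 months and aged mice 18 months old. Bleo mice received about 1 U/kg bleomycin into the trachea and Sham mice received PBS, and lungs were taken on day 30. ECs were sorted as CD45-, EpCAM-, GFP-, CD31+ cells, so leukocytes, epithelial cells and collagen-producing cells were depleted from every sample, and capillary, arterial, venous and lymphatic ECs were pooled. Each sample came from 1 mouse, with 5 mice in Young Sham, 5 in Aged Bleo and 4 each in Young Bleo and Aged Sham.

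Cdh13 encodes T-cadherin, an unusual cadherin that lacks a transmembrane and cytoplasmic part and is held to the cell surface by a glycosylphosphatidylinositol (GPI) anchor. It binds adiponectin, in particular its high molecular weight form, and low density lipoprotein, and it is found on vascular endothelium, smooth muscle and heart muscle. In cultured ECs it is known for effects on migration, survival and vessel formation. An ATAC-seq peak shows only that a stretch of DNA could be reached by the transposase and says nothing by itself of the level of the gene's RNA.

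Cdh13 is a very long gene. Its RefSeq transcript NM_019707.5 covers chr8:118283611-119324927 of mm10 on the plus strand, 1041 kb with 14 exons, and its first intron alone is 221.7 kb long. Of the 9 regions, 1 lay upstream of this transcript, 5 in intron 1 and 1 each in introns 2, 4 and 6. No region touched an exon of any RefSeq model or the promoter. In none of the 18 samples was a peak called between 1000 bp upstream and 100 bp downstream of the TSS, and the nearest peak edge lay 2829 bp from it. RefSeq also holds 3 predicted Cdh13 transcripts with other start sites, and their promoters had no peak in any sample either. The longest of them starts 143.6 kb upstream of the TSS used here, so the upstream region is intronic by that model. The predicted non-coding gene Gm51555 on the minus strand overlaps the regions at -8.7 kb, +3.0 kb and +6.9 kb, and ATAC-seq has no strand that would assign them to either gene. The regions are named here by the distance of their midpoint from the TSS: -8.7 kb, +3.0 kb, +6.9 kb, +91.3 kb, +110.6 kb, +161.3 kb, +276.7 kb, +567.0 kb and +781.2 kb. For the last 2, Hsbp1, a gene downstream, had the nearest TSS. Among 211 genes with a body of at least 500 kb the median was 0.512 regions per 100 kb, against 0.768 for Cdh13, and 76 of them had more than Cdh13.

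In 4 regions of introns 1 and 2 peaks were present in at least 3 of 4 Young Bleo mice and in no Young Sham mouse. Their sequence is shown because these regions carry the difference for which the locus was chosen. Each line gives 200 bases of the mm10 reference, plus strand, 5′ to 3′, centred on the summit of the strongest peak in the region, with matches to a searched motif in capitals.
+6.9 kb, chr8:118290475-118290674: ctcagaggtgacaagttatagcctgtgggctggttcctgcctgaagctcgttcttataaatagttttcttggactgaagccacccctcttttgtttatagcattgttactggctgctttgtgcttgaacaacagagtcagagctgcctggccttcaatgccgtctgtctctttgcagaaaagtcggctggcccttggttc
+91.3 kb, chr8:118374884-118375083: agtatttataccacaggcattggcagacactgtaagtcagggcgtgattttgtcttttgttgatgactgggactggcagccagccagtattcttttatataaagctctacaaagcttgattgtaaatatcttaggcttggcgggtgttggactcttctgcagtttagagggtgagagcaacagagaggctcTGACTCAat
+161.3 kb, chr8:118444785-118444984: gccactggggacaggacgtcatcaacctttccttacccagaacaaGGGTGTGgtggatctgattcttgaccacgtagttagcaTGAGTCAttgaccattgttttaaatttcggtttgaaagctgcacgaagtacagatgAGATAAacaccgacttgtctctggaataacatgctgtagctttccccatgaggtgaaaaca
+276.7 kb, chr8:118560205-118560404: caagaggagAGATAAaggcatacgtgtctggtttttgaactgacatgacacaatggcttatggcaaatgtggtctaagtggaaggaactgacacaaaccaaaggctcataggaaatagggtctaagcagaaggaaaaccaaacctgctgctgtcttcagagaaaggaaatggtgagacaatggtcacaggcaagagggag
Motifs of 6 factor families were searched on both strands, AP-1, GATA, KLF, ERG, forkhead and TEAD, with the letters given below. The capitals mark AP-1 letters at +91.3 kb, in order KLF, AP-1 and GATA letters at +161.3 kb, and GATA letters at +276.7 kb, and the window at +6.9 kb held none of the 6 motifs. The same is shown for the strongest region of the locus, +110.6 kb, which was open in nearly all mice, and for -8.7 kb, the region upstream of the curated transcript.
-8.7 kb, chr8:118274766-118274965: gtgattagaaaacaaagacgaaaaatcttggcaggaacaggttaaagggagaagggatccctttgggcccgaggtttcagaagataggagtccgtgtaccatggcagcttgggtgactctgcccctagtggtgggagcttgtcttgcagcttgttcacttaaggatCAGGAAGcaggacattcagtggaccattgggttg
+110.6 kb, chr8:118393967-118394166: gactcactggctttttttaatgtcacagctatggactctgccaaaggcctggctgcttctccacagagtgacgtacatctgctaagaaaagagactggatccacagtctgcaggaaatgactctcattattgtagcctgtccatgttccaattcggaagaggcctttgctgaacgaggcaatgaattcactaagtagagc
The capitals at -8.7 kb mark the ERG core, a sequence bound by ETS factors including ERG, which maintains endothelial identity. The window at +110.6 kb held none of the 6 motifs. The mice are of the FVB strain, so their own sequence may differ from the reference at single bases.

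AP-1 factors, which respond to stress and injury signals, bind TGANTCA, found in 2 of the 9 windows of the locus and in 8.63% of the windows of all regions. GATA factors bind AGATAA, found in 2 of 9 windows and in 9.67% of all. The ERG core CAGGAAG was in 2 of 9 windows and in 19.9% of all. KLF factors, some of them induced by blood flow in ECs, bind GGGTGTG, found in 1 of 9 windows and in 7.45% of all. The forkhead letters TGTTTAC were in none of the 9 windows and in 4.45% of all. The TEAD letters GGAATG were also in none and in 10.5% of all. None of the motifs overlapped another in these windows. A match is a run of letters and not a shown binding site, and with 9 windows these counts are a description only. The windows had a median GC content of 46.5%, between 44% and 54.5%, compared with a median of 53% over all regions. The regions were 285 to 767 bp wide with a median of 334 bp, against 440 bp over all regions.

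**Figure D1:**
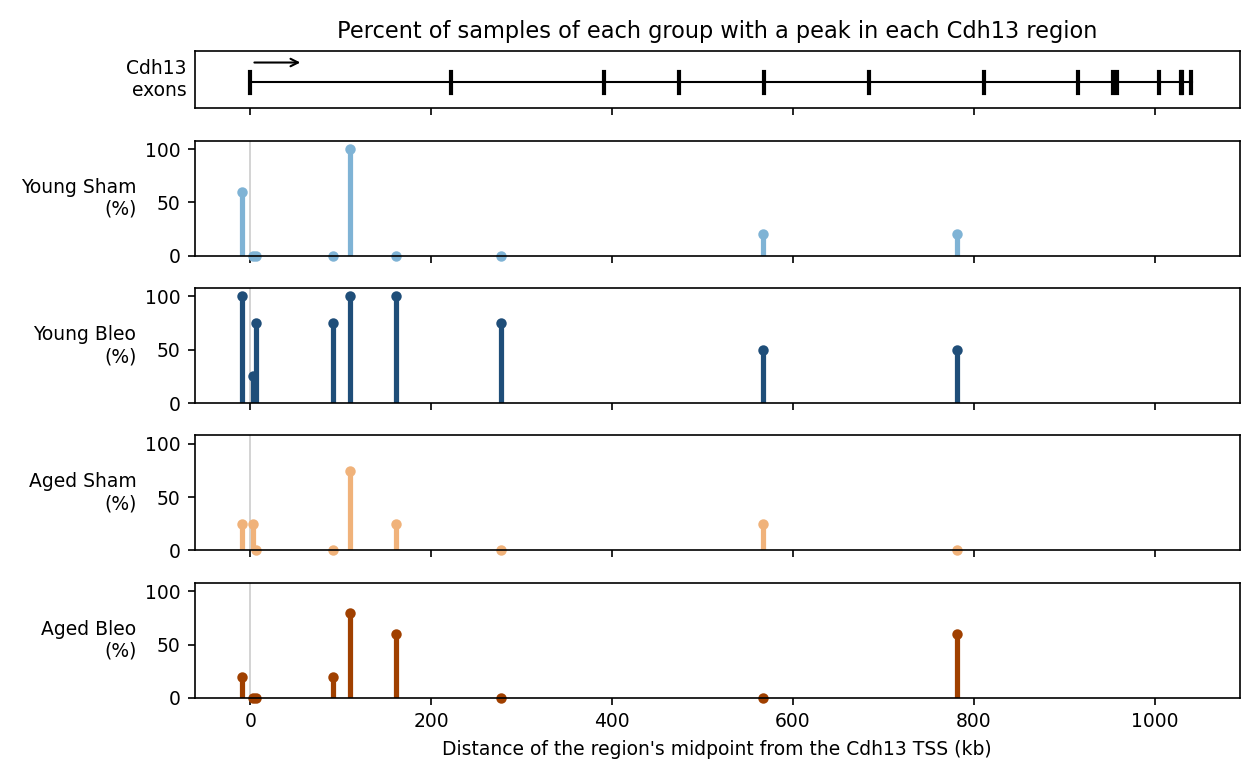
Distance of each of the 9 regions from the Cdh13 TSS (horizontal axis, kb) against the percent of samples of each group with a peak there (vertical axes). The upper track shows the gene with its 14 exons as bars and the direction of transcription as an arrow, and all regions but 1 lie downstream of the TSS, with 5 of them in the first intron.

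In young mice, bleomycin went with more open regions across the Cdh13 locus. Young Bleo 1, 2, 3 and 4 had peaks in 6, 6, 8 and 6 of the 9 regions, and Young Sham 1 to 5 had peaks in 2, 2, 2, 1 and 3. The groups did not overlap. In these bulk samples, a region open in more of the cells and a region more open in each cell cannot be told apart. A peak was present in 72.2% ± 11.1 (SD, n = 4) of the 9 regions after bleomycin and in 22.2% ± 7.86 (SD, n = 5) without it, which is 50 percentage points apart. Over all 47338 regions the same shares were 75.1% ± 5.87 and 71.9% ± 6.66, a difference of 3.18 percentage points. All Cdh13 regions but +110.6 kb had a peak in 9 or fewer samples, and among the 17148 regions of that kind the shares were 38.3% in Young Bleo and 30.8% in Young Sham. The regions at +6.9 kb and +276.7 kb had peaks in Young Bleo mice only, and +91.3 kb had besides them only 1 Aged Bleo peak. They passed the limit of 2 mice through Young Bleo, so the way regions were kept itself widens the difference at the locus.

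A region was called gained when its peaks were more frequent in the first group and the two-sided Fisher exact p of its counts was at most 0.05, which for 4 against 5 mice means 4 of 4 against at most 1 of 5, or 3 of 4 against 0 of 5. By this rule +6.9 kb, +91.3 kb, +161.3 kb and +276.7 kb were gained in Young Bleo, 4 of 9 regions, and none was lost. Of all regions 3.98% were gained and 1.96% lost in this comparison. Since this contrast chose the locus, nothing is read from the count. With at least 7 regions by nearest TSS, the number that Cdh13 has, there were 1434 genes, and 931 of them had no gained region. The share was 57.1% (4 of 7) for Cdh13, and 2 others had a share as high or higher, the highest being 62.5%. A high place of Cdh13 was set in advance by the choice of the locus, so nothing is read from it either. Of the 4 regions +161.3 kb was called in 4 of 4 against 0 of 5 mice and the other 3 in 3 of 4 against 0 of 5, just within the rule. The count fell to 1, the region at +161.3 kb, when Young Bleo 1 or Young Bleo 3 was left out, to 2 without Young Bleo 4 and to 3 without Young Bleo 2. When a single Young Sham mouse was left out it was also 1, but there 3 of 4 against 0 of 4 cannot pass the rule, and without a Young Bleo mouse that had the peak 2 of 3 against 0 of 5 cannot pass it. These counts are therefore set by the number of mice and by which mice had a peak, and say nothing about stability. It also fell to 1, again +161.3 kb, when only the 21050 peaks with the highest -log10 p of each list were used, which left 2 regions at the locus.

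**Figure D2:**
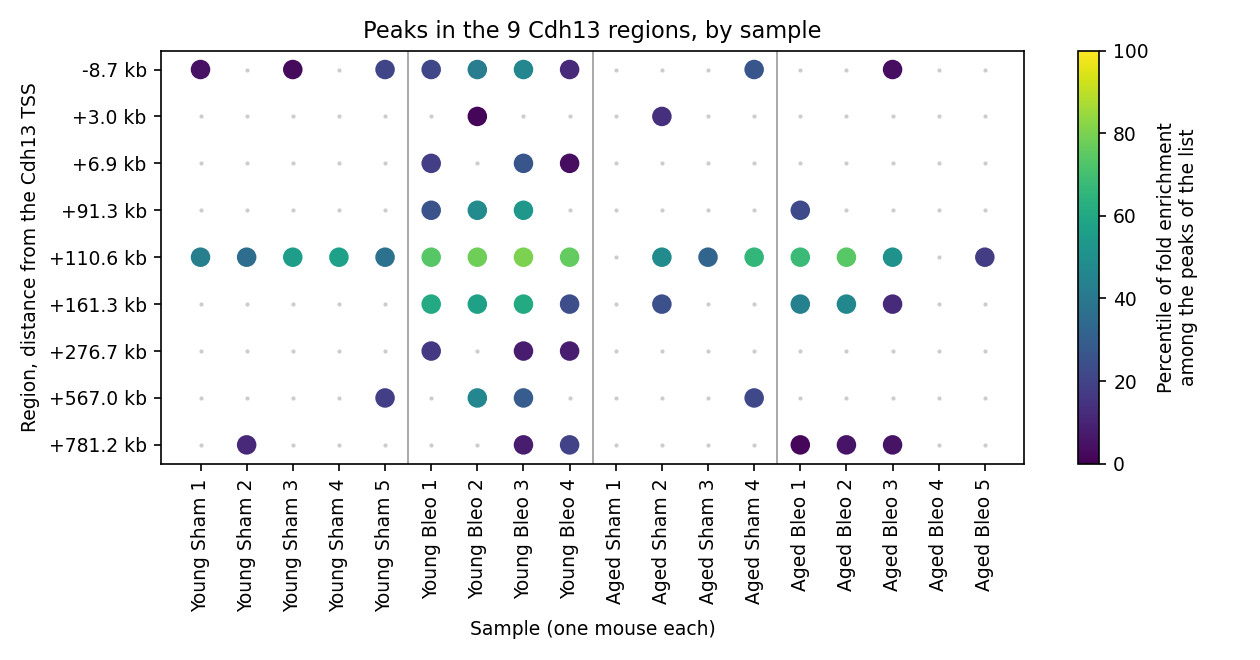
Each circle is a peak in 1 of the 9 Cdh13 regions (rows, by distance from the TSS) in 1 of 18 mice (columns), coloured by the percentile of its fold enrichment among all peaks of the same list, and small grey dots mark no peak. The Young Bleo columns hold 6 to 8 circles each and the Young Sham columns 1 to 3, and the row at +110.6 kb is filled in 16 of 18 mice.

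The 4 gained regions differed in strength. Strength is given as the fold enrichment of the summit over the background around it in that library, as the count of fragments covering the summit, and as the percentile of the fold enrichment among all peaks of that list, which needs no scaling between lists. The strongest was +161.3 kb (chr8:118444672-118445153), with fold enrichments of 11.4, 10.4, 11.7 and 5.98 in Young Bleo 1 to 4, from 30, 31, 36 and 17 fragments. The first 3 samples lay at the 60.5th, 56.9th and 60.9th percentile of their lists and Young Bleo 4 at the 23.5th. No Young Sham mouse had a peak there. In aged mice a peak was called in Aged Sham 2, with 6.47-fold enrichment from 13 fragments, and in Aged Bleo 1, 2 and 3, with fold enrichments of 8.06, 9.36 and 5.44 from 23, 19 and 11 fragments.

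At +91.3 kb (chr8:118374818-118375102) the fold enrichment was 6.34, 8.81 and 10.1 in Young Bleo 1 to 3, from 16, 21 and 26 fragments, and no peak was called in Young Bleo 4. Besides these only Aged Bleo 1 had a peak, 5.77-fold enriched from 14 fragments. The remaining gained regions were open in Young Bleo mice only. At +6.9 kb (chr8:118290314-118290701) Young Bleo 1, 3 and 4 had fold enrichments of 5.64, 6.44 and 4.24 from 16, 22 and 12 fragments. At +276.7 kb (chr8:118560180-118560467), in intron 2, the same 3 mice had fold enrichments of 5.59, 4.85 and 4.76 from 14, 12 and 12 fragments. These were weak peaks, between the 3.28th and the 26.6th percentile of their lists. The smallest number of fragments that made a peak was 7 to 10, depending on the list. A region without a peak may therefore be open below the depth of its library.

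The region at +110.6 kb (chr8:118393822-118394588) was present in both young groups, in 5 of 5 Young Sham and 4 of 4 Young Bleo mice, and differed in strength. Young Sham 1 to 5 had fold enrichments of 8.34, 7.23, 9.90, 10.1 and 7.79, from 18, 19, 28, 30 and 21 fragments. Young Bleo 1 to 4 had fold enrichments of 14.8, 16.2, 17.6 and 15.2, from 81, 113, 127 and 70 fragments. Every Young Bleo value lay above every Young Sham value. The same held for the within-list percentile, 73.5 to 80.4 in Young Bleo against 35.5 to 56.3 in Young Sham, a separation in this direction that 5.45% of the 23791 regions called in all 9 young samples also showed. The peaks were also broader, 666 to 764 bp in Young Bleo and 349 to 420 bp in Young Sham, a separation found in 2.91% of those regions. The local background at the summit was 3.67 to 6.27 expected fragments in Young Bleo and 1.28 to 2.06 in Young Sham, so the fold enrichment differed less than the fragments did. The background coverage of the libraries themselves was similar, 1.50 to 1.73 fragments in Young Bleo and 1.26 to 1.78 in Young Sham.

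**Figure D3:**
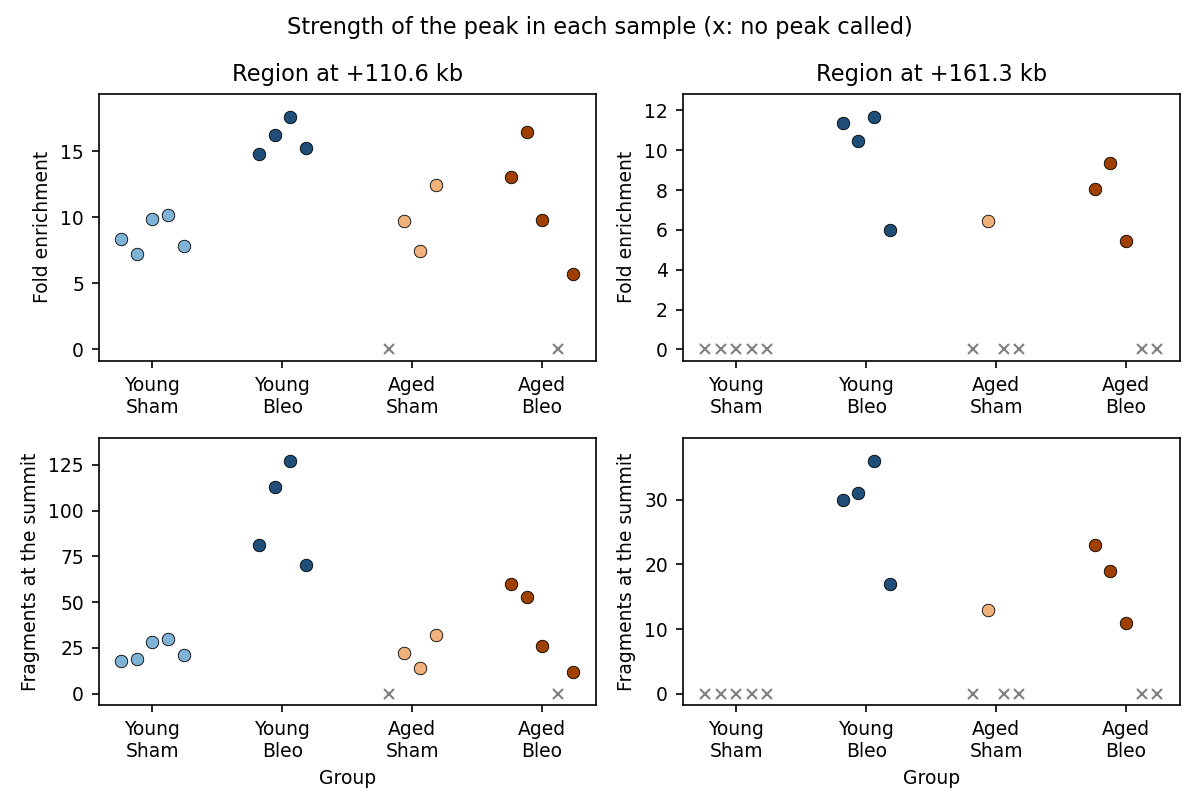
Fold enrichment (upper row) and fragments at the summit (lower row) at +110.6 kb and +161.3 kb in each mouse, by group, where a grey x drawn at 0 means that no peak was called and is not a measured 0. At +110.6 kb the Young Bleo mice lie at 70 to 127 fragments and the Young Sham mice at 18 to 30, while the aged groups overlap.

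The region at -8.7 kb (chr8:118274727-118275050), upstream of the curated transcript, was called in 4 of 4 Young Bleo and 3 of 5 Young Sham mice. Fold enrichments were 5.97, 8.01, 8.92 and 5.13 in Young Bleo 1 to 4 and 4.42, 3.93 and 6.09 in Young Sham 1, 3 and 5, so the values overlapped. In aged mice it was called only in Aged Sham 4 (6.45-fold) and Aged Bleo 3 (4.61-fold). The other 3 regions were called in few mice of any group. At +567.0 kb 1 Young Sham, 2 Young Bleo and 1 Aged Sham mouse had a peak, of 5.92- to 8.57-fold enrichment, and this window too held an ERG core. At +781.2 kb 1 Young Sham, 2 Young Bleo and 3 Aged Bleo mice had a peak, of 3.85- to 5.83-fold enrichment. At +3.0 kb Young Bleo 2 (3.59-fold, 12 fragments) and Aged Sham 2 (5.55-fold, 11 fragments) had a peak, which put it just inside the limit of 2 mice. Just outside it was a peak of Young Bleo 2 alone at +234.6 kb, 5.60-fold enriched from 13 fragments.

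In all, 55 peaks filled 162 combinations of region and mouse, 26 of them in Young Bleo, 10 in Young Sham, 7 in Aged Sham and 12 in Aged Bleo. They rested on 9 to 127 fragments with a median of 16, and 41 of the 55 lay below the 50th percentile of their list. Outside +110.6 kb the locus was thus made of peaks of low to middle strength in every group.

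In aged mice the locus did not differ between Bleo and Sham beyond the spread between mice. Aged Sham 1 to 4 had peaks in 0, 3, 1 and 3 of the 9 regions and Aged Bleo 1 to 5 in 4, 3, 4, 0 and 1, and the groups overlapped. The shares were 19.4% ± 16.7 (SD, n = 4) and 26.7% ± 20.2 (SD, n = 5), a difference of 7.22 percentage points, with 3.76 over all regions and 10.3 over the regions called in 9 or fewer samples, the kind to which 8 of the 9 Cdh13 regions belong. No Cdh13 region was gained or lost by the rule above, where 0.475% of all regions were gained and 0.41% lost. The lowest value was p = 0.167 (two-sided Fisher's exact test) for +781.2 kb, called in 3 of 5 Aged Bleo and 0 of 4 Aged Sham mice. For +161.3 kb, called in 3 of 5 and 1 of 4, the exact p was 0.524. It was 0.444 for +3.0 kb and +567.0 kb and 1 for the other 5 regions. Of these, +6.9 kb and +276.7 kb had no peak in any aged mouse, entered the locus through Young Bleo peaks alone and could give no other p, and they also lower the aged shares out of 9 regions. The remaining 7 regions had a peak in at least 1 aged mouse. After Benjamini-Hochberg adjustment over all 47338 regions the p of all 9 was 1. Over all regions 419 had an unadjusted exact p of at most 0.05 and 0 passed after adjustment, with 0.00794 the smallest p that 5 against 4 mice can give. These numbers of mice leave room for differences that the test could not show.

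The strength at +110.6 kb was spread widely in aged mice. Fold enrichments were 9.75, 7.43 and 12.4 in Aged Sham 2, 3 and 4, with no peak in Aged Sham 1. They were 13.04, 16.4, 9.80 and 5.74 in Aged Bleo 1, 2, 3 and 5, with no peak in Aged Bleo 4. At the summit there were 22, 14 and 32 fragments in the Aged Sham mice with a peak and 60, 53, 26 and 12 in the Aged Bleo mice. Aged Bleo 1 and 2 lay above all Aged Sham mice, whereas Aged Bleo 5 lay below those with a peak. Both samples without a peak at +110.6 kb had no peak anywhere in the locus.

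Ordered by the share of Cdh13 regions with a peak, Young Bleo came first at 72.2%, followed by Aged Bleo at 26.7%, Young Sham at 22.2% and Aged Sham at 19.4%, and the last 3 lay within 1 SD of each other. Young Bleo 1 to 4, with 6 to 8 regions, lay above every mouse of the other groups, which had 0 to 4. Among the 9 regions, +6.9 kb, +91.3 kb and +276.7 kb passed the limit of 2 mice only through Young Bleo, which raises its place. Aged Sham minus Young Sham was -2.78 percentage points at the locus, -12.8 over all regions and -18.5 over those called in 9 or fewer samples. In that comparison no Cdh13 region was gained or lost, with 0.264% of all regions gained and 4.9% lost. Only +110.6 kb could have been called lost, since all others had a peak in 3 of 5 Young Sham mice or fewer. At 3 of 5 against 0 of 4 the rule cannot be passed, so nothing is read from the absence of losses. Aged Bleo minus Young Bleo was -45.6 percentage points at the locus, -12.2 over all regions and -15.6 over those called in 9 or fewer samples. By the same rule -8.7 kb, +6.9 kb and +276.7 kb, 3 of 9 regions, were lost in Aged Bleo against Young Bleo and none was gained, where 2.44% of all regions were lost and 0.123% gained. Of these, +6.9 kb and +276.7 kb entered the locus through Young Bleo peaks alone. Their calls are therefore not independent of how regions were kept, and nothing is read from the count. Both comparisons share mice with the contrast that chose the locus, so these values are descriptions without a test.

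**Figure D4:**
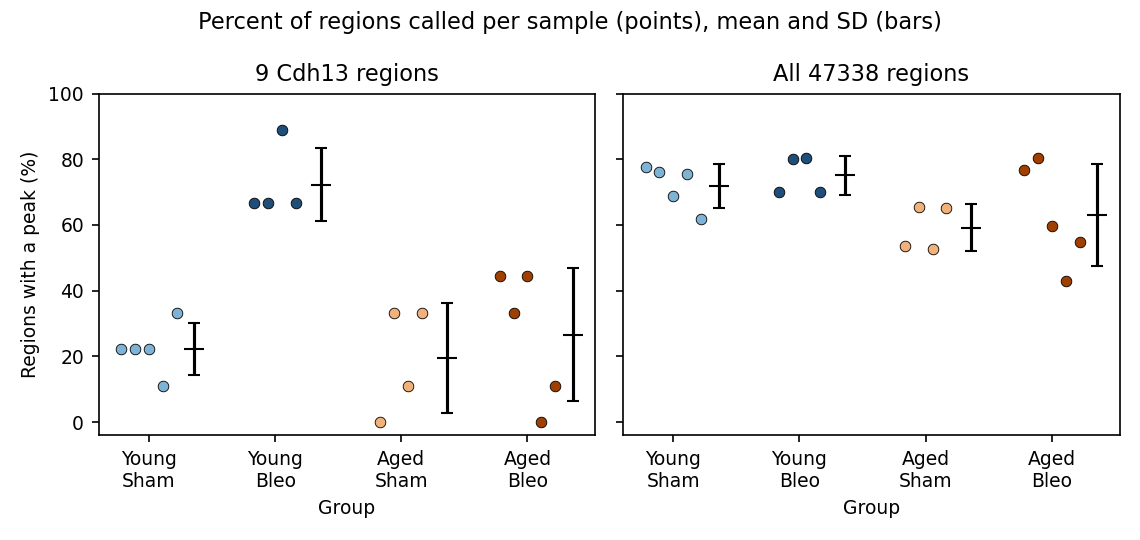
Percent of regions with a peak in each mouse (points) with the mean and SD of each group (bars), for the 9 Cdh13 regions and for all 47338 regions. At the locus the Young Bleo mice lie at 66.7% to 88.9% and all other mice at 44.4% or lower, while over all regions the Young Bleo mice, at 69.9% to 80.2%, overlap with Young Sham and Aged Bleo mice and lie above the Aged Sham mice, at 52.6% to 65.5%.

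The depth of the libraries moved with age, and a code in the names of the lists moved with age and with treatment. The lists held 21050 to 40883 peaks. Background coverage, the lowest number of fragments expected at any summit of a list, was 1.26 to 1.78 in young and 1.02 to 1.60 in aged mice, and their part in the differences with age was not tested. The samples without a peak at the locus were Aged Bleo 4, which had the fewest peaks, and Aged Sham 1, which had 26148, whereas Aged Sham 3, with 25793 peaks and a similar background coverage, had 1 region called. Without the list with the fewest peaks of each group, which for Aged Sham is replicate 3, the difference was 11.1 percentage points in aged and 54.6 in young mice. The names of the lists carry the codes L6, L7 and L8, which are read here as sequencing lanes, although the sample labels do not state a lane. On this reading all Young Sham mice and Young Bleo 4 were in lane 8, Young Bleo 1 to 3 and Aged Sham 1 to 3 in lane 7 and all Aged Bleo mice and Aged Sham 4 in lane 6. Within lane 8, Young Bleo 4 had 6 regions against 1 to 3 in Young Sham, a difference of 44.4 percentage points, and its 70 fragments at +110.6 kb lay above the 18 to 30 of Young Sham. Within lane 7, Young Bleo 1 to 3 had 6, 6 and 8 regions against 0, 3 and 1 in Aged Sham 1 to 3. Within lane 6, the Aged Bleo mice had 0 to 4 regions and Aged Sham 4 had 3, a difference of -6.67 percentage points. Lane and age cannot be told apart in Aged Sham against Young Sham, nor lane and age in Aged Bleo against Young Bleo, since no lane holds both groups of either pair. Within each age, lane and bleomycin also differ together in most mice. Young Bleo 1 to 3 share no lane with Young Sham, and Aged Sham 1 to 3 share none with Aged Bleo. The comparison within lane 8 rests on Young Bleo 4 alone and that within lane 6 on Aged Sham 4 alone. The part of lane in the differences with bleomycin was not tested.

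Promoter peaks of cell type markers mostly matched the sort for ECs. Of 10 endothelial markers 9 to 10 had a promoter peak in every young mouse, 7 to 9 in Aged Sham and 6 to 10 in Aged Bleo. Cdh5, Kdr, Cldn5, Erg, Tie1 and Egfl7 had one in all 18 samples, and Pecam1 in 17. Tek and Vwf each had one in 14 samples, among them all young mice, 2 of 4 Aged Sham and 3 of 5 Aged Bleo mice. Emcn had one in only 7 samples, with 0 of 4 Aged Sham mice. None of 8 leukocyte markers had one in any sample, among them Ptprc, which encodes CD45. Of 8 pericyte and smooth muscle markers, a lineage in which T-cadherin is also found, Myh11 had a peak in all 18 samples and Notch3 in 1 Aged Sham mouse. Pdgfrb, Cspg4, Acta2, Rgs5, Des and Cnn1 had none in any sample. Of 7 fibroblast markers only Pdgfra, of 8 epithelial markers only Foxj1 and Hopx, and of 3 mesothelial markers only Wt1, in 1 Young Sham mouse, had a peak. The counts for leukocyte, fibroblast and epithelial markers were the same in all 4 groups.

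Genes that act with T-cadherin, are related to it or were grouped with it by the study were described as a list. The list held 26 genes, of which 25 had 92 regions by nearest TSS, and 33 of these regions (35.9%) were called in all 18 samples, against 36.8% of all regions. The parts of the list went both ways. The share was 50% for the ligand and its receptors, 50% for signalling partners and 46.7% for catenins. It was 27.5% for other cadherins and 0% for the 7 regions of the study's migration genes. Of the 92 regions 2 were gained and 2 lost in Young Bleo against Young Sham, beside 3.98% and 1.96% of all regions. In Aged Bleo against Aged Sham 1 was gained and 1 lost, beside 0.475% and 0.41% of all regions. With counts this small nothing is called particular to the list. Among the ligand and its receptors, Adipor1 and Adipor2, the other receptors of adiponectin, and Appl1, an adaptor of those receptors, had a promoter peak in all 18 samples, whereas Adipoq, the adiponectin gene of fat cells, had none. None of their 10 regions was gained or lost in either comparison. The same held for the 15 regions of the catenins Ctnna1, Ctnnb1, Ctnnd1 and Jup, which tie classical cadherins to the cytoskeleton, and for the 20 regions of 8 signalling partners, among them Ilk, an integrin-linked kinase, and the small GTPases Rac1, Rhoa and Cdc42.

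The list held 40 regions of other cadherins, of which 2 were gained in young mice, and 1 was gained and 1 lost in aged mice. Cdh5, VE-cadherin of endothelial junctions, had 13 regions, none gained or lost. A region 4040 bp downstream of the TSS of Cdh11, a mesenchymal cadherin, was called in 4 of 4 Young Bleo, 1 of 5 Young Sham, 1 of 4 Aged Sham and 1 of 5 Aged Bleo mice. Of the 18 regions of Pcdh1, a protocadherin, 1 was called in 3 of 4 Young Bleo and 0 of 5 Young Sham mice, and another in 1 of 5 Aged Bleo and 4 of 4 Aged Sham mice. The only region of Cdh2, which encodes N-cadherin, lies at its TSS and was called in 4 of 5 Aged Bleo and 0 of 4 Aged Sham mice, but also in 5 of 5 Young Sham and 3 of 4 Young Bleo mice. In the aged comparison the adjusted exact p was 1 for these regions as for all others. Evl, Ccn3 (Nov) and Mmp14 are genes that the study grouped with Cdh13 for cell migration on these same mice, so they are no independent evidence. Evl, which encodes an actin regulator, had 4 regions, of which 2 were lost and 0 gained in Young Bleo. The lost regions were called in 5 and 4 of 5 Young Sham and in 1 and 0 of 4 Young Bleo mice. Of all regions 1.96% were lost in this comparison, and no direction for the gene is read from 2 regions. Ccn3 and Mmp14 had no gained or lost region.

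The genes whose regions varied over the mice most like those of Cdh13 were Efna5, Fat4, Mecom, Dysf and Plxna2. For each of 260 genes with at least 10 regions and a body of at least 100 kb, the percent of its regions with a peak, less that of all regions, was correlated with the same quantity for Cdh13 over the 18 samples. Pearson's r was 0.79 for Efna5, 0.75 for Fat4, 0.72 for Mecom, 0.67 for Dysf and 0.63 for Plxna2, against a median of -0.05. These values carry no test, since the points share libraries, depth and groups. Efna5 encodes ephrin-A5, a GPI-anchored guidance ligand, and had peaks in 77.3% of its 11 regions in Young Bleo, 56.4% in Young Sham, 47.7% in Aged Sham and 49.1% in Aged Bleo. Fat4, a large protocadherin gene, had 72.2%, 44.4%, 31.9% and 45.6% in the same order over 18 regions. Mecom, a transcription factor of haematopoietic and endothelial cells, had 77.9%, 54.1%, 45.6% and 47.1% over 17 regions. These genes were picked for their likeness to Cdh13, and over all regions too the share was highest in Young Bleo, so no pattern is read from them.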

How the data were processed

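ATAC-seq peak lists of lung ECs from 18 mice were used, each list from 1 sample. Per the study's methods, the authors mapped Omni-ATAC-seq read pairs to mm10 with BWA, removed duplicates with Picard and called peaks per sample with MACS2 at an FDR of 1%. A control library or a Tn5 shift is not given in the sources used here. The deposited fold enrichment, computed by the authors' peak caller, is the ratio of the pileup at a summit to the background expected there in that library. The deposited p-values and q-values, written as -log10, come from MACS2's Poisson test in that library. The deposited score, a rescaled q-value, was not used. None of these is scaled between libraries, and the read counts behind the authors' DiffBind analysis were not used here.

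Autosomal, X and Y peaks were kept, and 19 mitochondrial peaks were dropped. Peaks sharing 1 bp or more were merged, regions seen in 2 or more samples were kept, and the TSS nearest to the midpoint was taken from 45745 RefSeq transcripts of the NM and NR classes (GRCm38.p6, the mm10 assembly). Motifs were read from the reference genome. Presence of a peak was compared with two-sided Fisher's exact tests over all regions with Benjamini-Hochberg adjustment (scipy 1.17.1, numpy 2.4.6, pandas 2.3.3, python 3.11.15), tested on simulated calls. MACS2's fold (pseudocount 1) and -log10 p were solved for the whole number of fragments and the expected number at the summit, to within 0.001 in -log10 p, which succeeded in each list for 99.9875% or more of the peaks whose -log10 p did not exceed 100. Read totals are not part of the lists, so depth is known only through the lowest expected number, the background coverage. Fragments are not independent molecules. Alternatives were stricter peaks, equal numbers of peaks per list, other definitions of a region and of a call, leaving out single samples, blocking by replicate number, single lanes and within-list percentiles. Groups and replicate numbers came from the sample labels and lanes were inferred from the codes L6 to L8 that the list names carry.

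The regions given in full are those gained or lost in either bleomycin comparison. No region lay in the promoter and none was called in all 18 samples, so these parts of the rule named none, and +110.6 kb and -8.7 kb were added after their values were seen. For the same reason the comparison of strength in regions called in all samples could not be made. The 5 genes most like Cdh13 were taken by their correlation. The members, lists and rules were chosen with earlier results of these data known.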

Additional observations from a re-analysis of the deposited data

Results flagged for a closer look

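Young Bleo 3 had peaks in 8 Cdh13 regions while the other 3 Young Bleo samples had 6 each, and it was singled out by Dixon's criterion. Since the other 3 counts were equal, any different count would have been singled out, so this flag does not measure distance. At +161.3 kb Young Bleo 4 lay at the 23.5th percentile of its list, below the 56.9th to 60.9th percentile of the other 3, with 17 fragments against 30 to 36. Young Bleo 4 is the only sample of its group with the lane code L8. Aged Bleo 1 had a background coverage of 1.60 fragments, above the 1.06 to 1.14 of the other Aged Bleo samples, and had peaks in 4 Cdh13 regions, as did Aged Bleo 3 with a background coverage of 1.11. In all, 32 sets of values were examined in this way and 3 held such a sample, where chance alone gives about 1 in 20. That rate does not hold for tied counts such as those of Young Bleo.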

How the results depend on the processing

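Of 132 alternative values, 123 stayed within the spread between mice or within 1.5 times the count, and none of the larger differences changed sign. The exceptions concern the 4 regions gained in Young Bleo. Their count was 1 with the same number of peaks per list. It was 1 or 2 with a single young sample other than Young Bleo 2 left out. The region at +161.3 kb was gained in each of these settings. The count of 1 when a single Young Sham mouse is left out is set by the number of mice, since 3 of 4 against 0 of 4 cannot pass the rule. The same holds for 2 of 3 against 0 of 5 when a Young Bleo mouse that had the peak is left out, so these counts say nothing about stability. The other planned settings gave 3 to 5 regions. Calling by within-list percentile gave 6, given as a description only, since the young mice chose the locus. This setting and those by lane and without the list with the fewest peaks of each group were chosen after seeing the data. No region was lost in young mice, and none was gained or lost in aged mice, under any alternative. These counts of 0 are among the 123 values that stayed. By the main calls only +110.6 kb had peaks in enough Sham mice to be called lost at either age. The absence of losses therefore says nothing about stability. The difference in percent called ranged from 44.4 to 57.5 percentage points for Young Bleo minus Young Sham, from -57.5 to -38.9 for Aged Bleo minus Young Bleo, from -7.50 to 13.9 for Aged Bleo minus Aged Sham and from -7.41 to 7.50 for Aged Sham minus Young Sham. The sign of the last 2 therefore depended on the setting.

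Same-numbered samples were not paired by these data. Over 16 same-numbered pairs the correlation of deviations from the group means lay between -0.20 and 0.17, with 3 above 0.1, and 3 pairs were best matched by their own number. With the number as a replicate block the 4 differences were 52.8, 11.1, 0 and -41.7 percentage points for Young Bleo minus Young Sham, Aged Bleo minus Aged Sham, Aged Sham minus Young Sham and Aged Bleo minus Young Bleo. The planned comparison of strength had no Cdh13 region called in all samples and gave no value. Of the 55 peaks of the locus 34 rest on under 20 fragments, so an absent peak limits what can be said of weakly open chromatin.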
